A study of Mus musculus with 4 samples.

Results

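The genes described here are 35 integrin subunits and focal adhesion components, chosen by gene symbol. No measured value entered that rule, but the list was made with earlier results of these data known. At least 1 probe set annotated to a single symbol covered 33 of them, out of 18193 genes with such a probe set on the array, and together they had 84 probe sets. Itga11, a collagen-binding integrin alpha subunit, and Ptk2, which encodes focal adhesion kinase, had no probe set with 1 symbol in the annotation used here and were not analysed here. Total RNA came from ST2, an established fibroblast-like stromal line from the bone marrow of BALB/c mice, grown in RPMI medium with fetal bovine serum. The LIPUS groups were ST2 cells exposed once to low-intensity pulsed ultrasound, a mild mechanical stimulus, at 25 mW/cm2 for 20 min and then returned to culture for 0.5 h, 1 h or 3 h. The control group was ST2 cells kept in culture without ultrasound, and the labels say neither whether these cells were handled as if for exposure nor when they were harvested. Each group was 1 Affymetrix whole-genome mouse expression array, and all 4 groups share the same cell line, so every difference below compares single arrays of 1 line and has no replicate check.

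Integrins are cell surface receptors made of 1 alpha and 1 beta subunit, and the pair decides which matrix protein is bound. Inside the cell, talins and kindlins switch integrins to a form that binds the matrix, and adaptors such as zyxin, paxillin, tensins and the ILK, PINCH and parvin complex join them to actin filaments and to signalling kinases. These contacts, the focal adhesions, are the places where a stromal cell senses stretch and stiffness of its surroundings.

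Signals are on the log2 scale, and a log2 ratio is the signal of a LIPUS array minus that of the control array, so that 1 means 2-fold. Values under log2 5.23, the median of all values, were raised to that floor, and a ratio needed at least 1 of its 2 arrays above it. The brightest probe set on average stands for a gene. Signals of different probe sets are not comparable as amounts of RNA, so levels are set beside each other only within a probe set. Bulk RNA cannot tell fewer cells that express a gene apart from less RNA per cell.

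Each array held 45101 probe sets, and array medians lay between 5.21 and 5.25. Of 9 stromal markers with a probe set, 8 were above the floor on all 4 arrays, among them Col1a1, Pdgfrb and Cxcl12, while Thy1 was under it. Markers under the floor on all 4 arrays included Ptprc, Itgam and Itgb2 of blood cells, Pecam1 and Cdh5 of endothelium, and Cdh1 and Krt5 of epithelium. Of the 6 blood, 5 endothelial and 5 epithelial markers with a probe set, 1, 1 and 2 were above it on all 4 arrays (Cd3e, Kdr, Epcam and Krt8). Summed over the floor, the blood markers ranged over the LIPUS arrays between 0.83 and 1.05 on the log2 scale, against 0.85 on the control array. The corresponding sums were 0.28 to 0.60 against 0.43 for endothelial markers and 2.69 to 2.96 against 3.05 for epithelial markers. Control probe sets moved too: the median difference of 24 poly-A spike-in probe sets was -0.05, 0.29 and 0.39 at 0.5, 1 and 3 h, and that of 3 probe sets of 18S ribosomal RNA was 0.96, 1.91 and 1.79. Their part in the results below was not tested.

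On the control array, 28 of the 33 members with a probe set were above the floor, against 62.7% of all 18193 genes. Over all 4 arrays 27 were above it throughout, 2 on some arrays and 4 on none. Of the 17 integrin subunits with a probe set, 11 were above the floor on all 4 arrays, against 16 of 16 other members with one. Over all genes, 11014 of 18193 were above it on all 4 arrays, a share close to that of the integrin subunits. The subunits that were above it throughout can form receptors for laminin (Itga3, Itga6 and Itga7 with Itgb1), for collagen (Itga1 with Itgb1) and for fibronectin and vitronectin (Itga5 with Itgb1, and Itgav with Itgb1, Itgb3 or Itgb5).

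**Figure D1:**
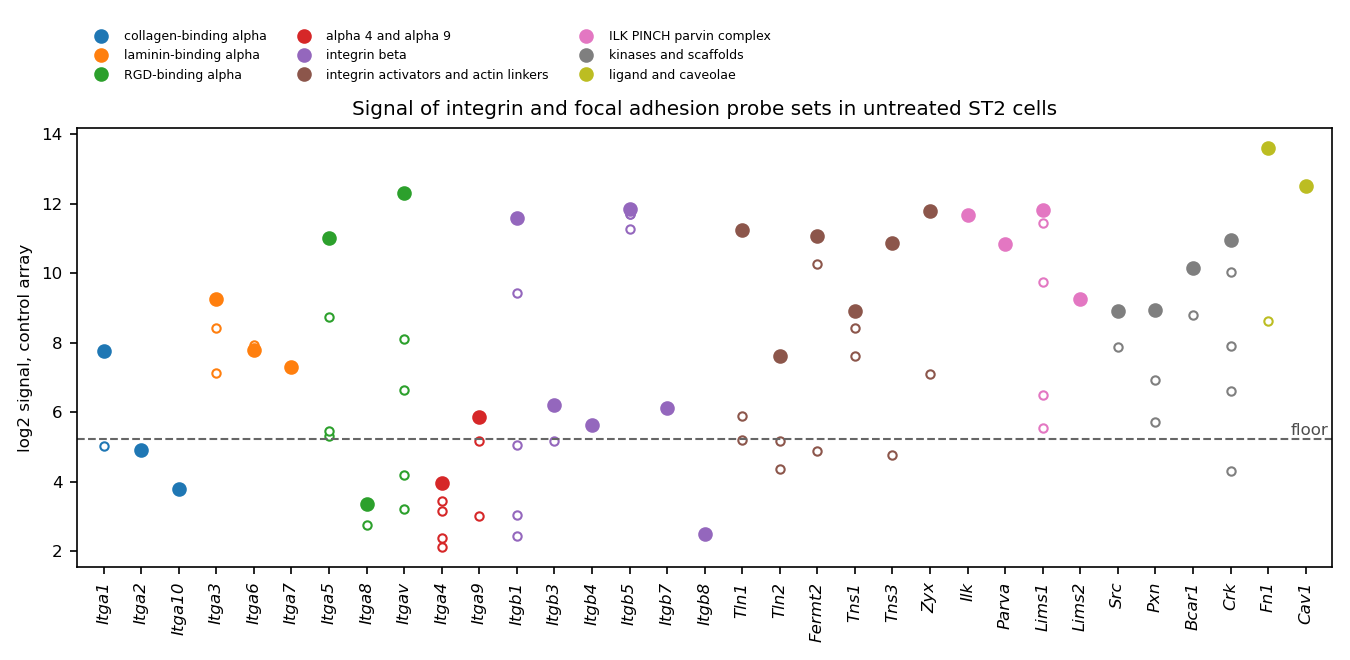
Log2 signal on the control array (vertical axis) of each probe set of the 33 members with one (horizontal axis). Filled points are the probe set that is brightest on average over the 4 arrays, open points the gene's other probe sets, and colours the role. The dashed line is the floor at 5.23, with 28 filled points above it and 5 under it.

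After LIPUS no member passed the 2-fold rule at any time, and the largest differences among brightly detected members were lower signals of Zyx, Tln1 and Itga5. At 0.5 h, 29 members were measured and 0 passed 2-fold in either direction, where 0.138% of 11574 genes were at least 2-fold higher and 0% at least 2-fold lower. At 1 h, 0 of 28 members passed it, where 0.191% of 11497 genes were higher and 0% lower. At 3 h, 0 of 28 members passed it, where 0.0691% of 11574 genes were higher and 0% lower. At a rule of 1.5-fold the member counts on brightest probe sets were also 0 throughout. A dim Lims1 probe set above the floor on all 4 arrays did pass it, at a log2 ratio of -0.62 at 0.5 h. Over all genes, 0.104%, 0.331% and 0.181% were at least 1.5-fold lower at 0.5, 1 and 3 h, and 0.372%, 0.948% and 0.346% at least 1.5-fold higher. Such shares of 28 or 29 genes come to less than 1 gene, so the counts of 0 are at the background. For scale, Fos, an immediate early transcription factor, was at least 12.1-fold higher at 0.5 h on the same arrays.

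At a smaller size, 0.25 on the log2 scale, more members were lower than higher. At 0.5 h 1 of 29 members, Itga5, was at least 0.25 lower, against 3.03% of all genes, and 0 were at least 0.25 higher, against 3.13%. At 1 h 6 of 28 members were that much lower, against 8.52% of all genes: Zyx, Itga9, Tln1, Itgb4, Itgb7 and Itgb3. One member, Itga1, was that much higher at 1 h, against 10.3% of all genes. At 3 h 6 of 28 members were that much lower, against 6.15% of all genes: Zyx, Itgb4, Itga9, Tln1, Itga5 and Itgb7. None of 28 members was that much higher at 3 h, against 6.7% of all genes. The median log2 ratio of the members was -0.03, -0.04 and -0.02 at 0.5, 1 and 3 h, close to the medians of all genes, 0.01, 0.02 and 0.01. Ratios below 0 were found for 19 of 29, 19 of 28 and 18 of 28 members at the 3 times, beside 46.9%, 45.1% and 47.5% of all genes. Of the 28 members measured at every time, 12 (42.9%) were lower than the control array at all 3 times, against 25.9% of all genes, and 3 (10.7%) were higher at all 3, against 30.6% of all genes. The 3 ratios of a gene share the control array, and that array gave the highest signal of the 4 for 12 of the 27 members above the floor throughout, against 25.2% of all such genes.

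**Figure D2:**
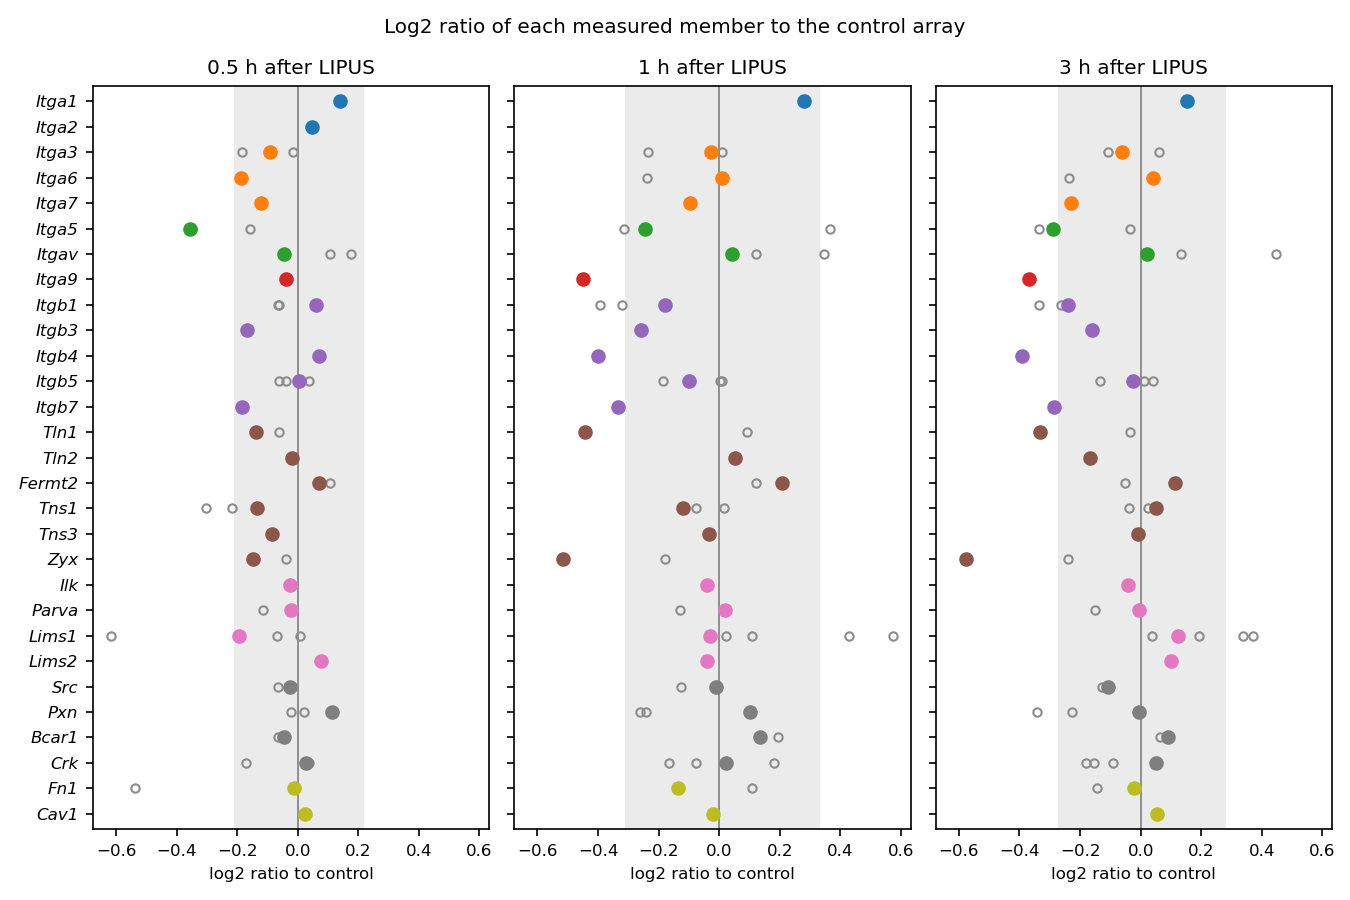
Log2 ratio to the control array (horizontal axis) of each measured member (vertical axis) at 0.5, 1 and 3 h after LIPUS. Filled points are the brightest probe set, coloured by role as in the plot of control signals, open points other probe sets above the floor on all 4 arrays. The grey band holds the middle of all genes, 5th to 95th percentile: -0.21 to 0.22 at 0.5 h, -0.31 to 0.33 at 1 h and -0.27 to 0.28 at 3 h. Zyx, Tln1, Itga9, Itgb4 and Itgb7 lie left of the band at 1 h and 3 h, and Itga5 lies left of it at 0.5 h and 3 h.

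No replicate exists, so the one measure of error is how far 2 probe sets of the same gene differ in their ratio on the same arrays. Its SD was 0.11 at 0.5 h, 0.16 at 1 h and 0.14 at 3 h, over 5091, 5072 and 5105 genes. It covers probe behaviour only and says nothing of how far separate cultures would differ.

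Among the alpha subunits of collagen receptors, Itga1, the alpha 1 chain, had log2 signals of 7.74 on the control array and of 7.88, 8.02 and 7.90 at 0.5, 1 and 3 h. By brightest probe set, Itga1 alone of the integrin subunits above the floor on all 4 arrays was higher on all 3 LIPUS arrays. Its log2 ratios were 0.14, 0.28 and 0.15. A dim second probe set of Itga1 was above the floor at 1 h alone, at 5.63 against 5.03 on the control array. Itga2, the alpha 2 chain, lay close to the floor, at 4.89 on the control array and at 5.28, 5.08 and 5.18 at the 3 times, and only the 0.5 h array passed it. Itga10, the alpha 10 chain known from cartilage, was under the floor on every array, with signals of 3.67 to 3.95.

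The laminin receptors showed small differences of mixed sign. Itga3, which pairs with Itgb1, had a log2 signal of 9.24 on the control array and of 9.15, 9.21 and 9.18 at 0.5, 1 and 3 h, all within 0.1 of each other. A dimmer probe set of Itga3 was lower on all 3 LIPUS arrays, with log2 ratios of -0.18, -0.24 and -0.11. The remaining Itga3 probe set was at -0.02, 0.01 and 0.06. Itga6 had 7.79 on the control array and 7.60, 7.80 and 7.83 at the 3 times, so that the 0.5 h array alone was low. Its second probe set, of similar brightness, had 7.92 on the control array and 7.73, 7.68 and 7.68 after LIPUS, and was thus low on all 3 LIPUS arrays. Itga7, the alpha chain of muscle laminin receptors, had 7.29 on the control array and 7.17, 7.19 and 7.06 after LIPUS. Its log2 ratios were -0.12, -0.10 and -0.23, and the first and last exceeded the probe set SD of their times, 0.11 and 0.14.

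Itga5, the alpha chain of the classical fibronectin receptor, gave the lowest member ratio at 0.5 h. The control array had a log2 signal of 11.01, and the arrays at 0.5, 1 and 3 h had 10.65, 10.76 and 10.72, all of them below it. The log2 ratios were -0.36, -0.25 and -0.29, and the first ranked 94 from the lowest of 11574 genes. That probe set carries the suffix for probes shared with other transcripts. A probe set of Itga5 without the suffix had 8.72 on the control array and 8.37, 8.41 and 8.39 after LIPUS, with log2 ratios of -0.35, -0.32 and -0.34. The other 2 probe sets of Itga5 were near the floor, and 1 of them had a log2 ratio of 0.36 at 1 h, so that the mean over the probe sets of Itga5 was -0.03 then. Itgav, the alpha chain shared by vitronectin and other RGD receptors, had 12.31 on the control array and 12.27, 12.35 and 12.33 after LIPUS, a range of 0.09. A dimmer probe set of Itgav was higher on all 3 LIPUS arrays, at 8.27, 8.21 and 8.23 against 8.09 on the control array. Another was higher on all 3 as well, at 6.73, 6.97 and 7.07 against 6.62 on the control array. Itga8, another RGD-binding chain, was under the floor on every array.

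Of the remaining alpha subunits, Itga4, which pairs with Itgb1 or Itgb7 on blood cells, was under the floor on all 4 arrays with each of its 5 probe sets. Itga9, its closest relative and a tenascin receptor chain, had log2 signals of 5.84 on the control array and of 5.81, 5.39 and 5.48 at 0.5, 1 and 3 h. The arrays at 1 h and 3 h were thus low, with log2 ratios of -0.45 and -0.37, but both lay within 0.25 of the floor. The other 2 probe sets of Itga9 were under the floor throughout.

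Itgb1, the beta chain common to most of these receptors, was lower at 1 h and 3 h on each of its 3 probe sets above the floor. The log2 signals of its representative probe set were 11.57 on the control array and 11.63, 11.39 and 11.33 at 0.5, 1 and 3 h. A second bright probe set of Itgb1 had 11.62 on the control array and 11.55, 11.30 and 11.36 after LIPUS, and another had 9.42 on the control array and 9.36, 9.03 and 9.09 after LIPUS. At 0.5 h the representative probe set was at 0.06, against -0.07 and -0.06 for the other two. The log2 ratios of all 3 were -0.39 to -0.18 at 1 h and -0.33 to -0.24 at 3 h. The remaining 3 probe sets of Itgb1 were under the floor. Itgb5, a partner of Itgav, had 11.83 on the control array and 11.84, 11.74 and 11.81 after LIPUS, and its 4 bright probe sets were divided in sign at every time.

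The other beta subunits were dim. Itgb3, also a partner of Itgav, had log2 signals of 6.21 on the control array and of 6.04, 5.95 and 6.05 after LIPUS. Itgb7, known from lymphocytes, had 6.12 on the control array and 5.94, 5.79 and 5.84 after LIPUS, with a log2 ratio of -0.33 at 1 h. Itgb4, the hemidesmosome chain that pairs with Itga6 in epithelia, had 5.63 on the control array and 5.70, 5.12 and 5.24 after LIPUS. The 1 h array of Itgb4 was under the floor, so Itgb4 was at least 1.32-fold lower there. Itgb8 was under the floor on all 4 arrays, with signals of 2.49 to 2.79.

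Low ratios of dim genes were common on the 1 h array. Among all genes with a mean log2 signal between the floor and 7, the median log2 ratio at 1 h was -0.06, and 14.9% were at least 0.25 lower. The 4 members in that range, Itga9, Itgb3, Itgb4 and Itgb7, were all at least 0.25 lower at 1 h. At 3 h 3 of these 4 were, against 7.47% of all genes in that range. Among all genes with a mean above 11, in contrast, the median was 0.03 at 1 h and 4.01% were at least 0.25 lower, with 3.03% at 3 h. Of the 10 members there, Zyx and Tln1 were at least 0.25 lower at both times.

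**Figure D3:**
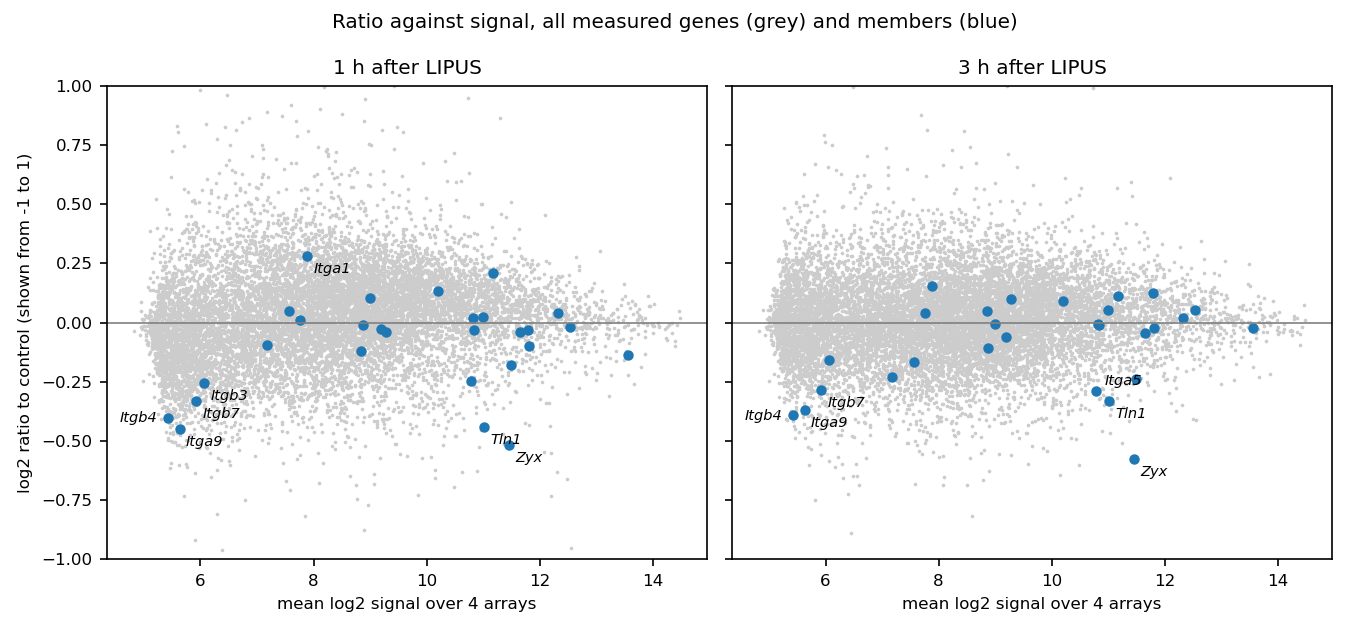
Log2 ratio to the control array (vertical axis, shown between -1 and 1) against the mean log2 signal over the 4 arrays (horizontal axis) at 1 h and 3 h after LIPUS. Grey points are all measured genes, blue points the members, named where they lie at least 0.25 from 0. Genes with a mean between the floor and 7 form a wide cloud, with a 5th percentile of -0.36 at 1 h and -0.29 at 3 h. The dim subunits Itgb4 and Itga9 lie under it at both times, and Itgb7 lies close to it. Zyx, at -0.52 and -0.58, lies under the 5th percentile of genes with a mean above 11, -0.22 and -0.20.

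Among the proteins that activate integrins or link them to actin, Zyx, which encodes zyxin, an adaptor that gathers on tensed actin filaments, had the lowest member ratios at 1 h and 3 h. Its log2 signal was 11.77 on the control array, and 11.62, 11.25 and 11.19 at 0.5, 1 and 3 h, lower at each later time. The log2 ratios were -0.15, -0.52 and -0.58, so that Zyx was 1.49-fold lower at 3 h. Zyx ranked 67 from the lowest of 11497 genes at 1 h and 23 from the lowest of 11574 at 3 h. The second probe set of Zyx, which is dimmer and shares probes with other sequences, had 7.10 on the control array and 7.06, 6.92 and 6.86 after LIPUS. Both probe sets of Zyx were in the same order over the 4 arrays, and the second gave a log2 ratio of -0.24 at 3 h.

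Tln1, which encodes talin 1, the actin linker that binds integrin beta tails, had log2 signals of 11.24 on the control array and of 11.11, 10.80 and 10.91 at 0.5, 1 and 3 h. Its log2 ratios were -0.14, -0.44 and -0.33, and the value at 1 h ranked 148 from the lowest of 11497 genes. A second Tln1 probe set near the floor did not share this course, at 5.88 on the control array and 5.82, 5.97 and 5.85 after LIPUS, and its last one was under the floor throughout. Averaged over the probe sets above the floor, Tln1 was at -0.18 at 1 h. Tln2, the second talin, had 7.61 on the control array and 7.59, 7.66 and 7.44 after LIPUS. Fermt2, which encodes a kindlin, stood on the other side, with 11.07 on the control array and 11.14, 11.27 and 11.18 after LIPUS. Its log2 ratios were 0.07, 0.21 and 0.11, and its second bright probe set had 0.11, 0.12 and -0.05. Of the tensins, Tns1 had 8.90 on the control array and 8.76, 8.78 and 8.95 after LIPUS, and Tns3 had 10.86 on the control array and 10.78, 10.83 and 10.85. The other 2 probe sets of Tns1 were at -0.30 and -0.22 at 0.5 h and within 0.1 of 0 later.

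**Figure D4:**
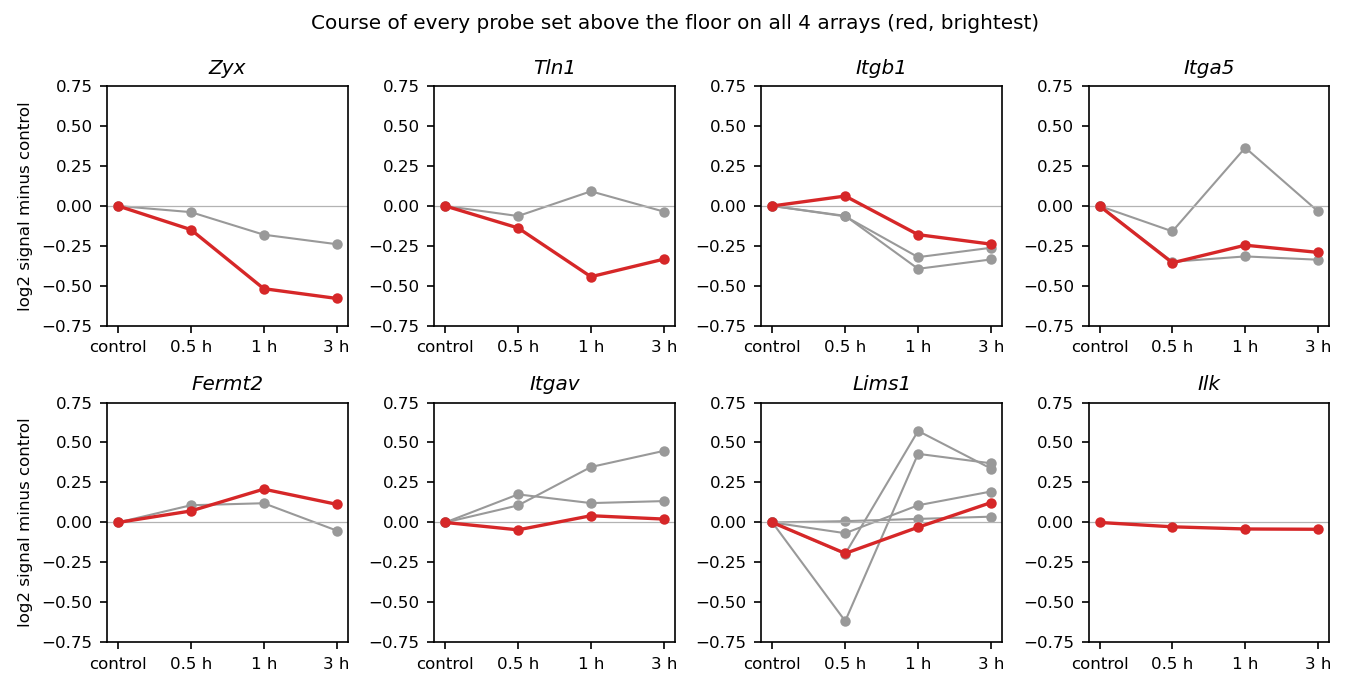
Log2 signal minus that of the control array (vertical axis) on the control, 0.5 h, 1 h and 3 h arrays (horizontal axis) for every probe set above the floor on all 4 arrays of 8 members. Red is the brightest probe set, grey the others. Both probe sets of Zyx and 3 of Itgb1 end below 0 at 3 h, those of Tln1, Itga5 and Lims1 disagree in part, and Ilk stays within 0.1 of 0.

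Promoter sequences of the 3 bright members with the lowest ratios, Zyx, Tln1 and Itga5, and of Fermt2, which was higher on all 3 arrays, are shown so that the letters upstream of these genes can be read beside their values. They come from RefSeq on GRCm38.p6, from 250 bases before to 50 after the start site, 5′ to 3′ on the strand of the gene. Zyx is at chr6:42349578-42349877 (plus strand), Tln1 at chr4:43562534-43562833 (minus strand), Itga5 at chr15:103366742-103367041 (minus strand) and Fermt2 at chr14:45530016-45530315 (minus strand). Capitals mark a GC box in all but Tln1, an AP-1 site in Zyx and a CArG box, the serum response factor motif, in Fermt2.
Zyx: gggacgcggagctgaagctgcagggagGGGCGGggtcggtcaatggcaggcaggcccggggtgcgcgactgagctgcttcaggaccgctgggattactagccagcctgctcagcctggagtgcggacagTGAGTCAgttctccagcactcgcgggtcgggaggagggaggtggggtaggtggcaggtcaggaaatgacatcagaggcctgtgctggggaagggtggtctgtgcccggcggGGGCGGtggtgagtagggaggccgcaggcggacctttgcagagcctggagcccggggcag
Tln1: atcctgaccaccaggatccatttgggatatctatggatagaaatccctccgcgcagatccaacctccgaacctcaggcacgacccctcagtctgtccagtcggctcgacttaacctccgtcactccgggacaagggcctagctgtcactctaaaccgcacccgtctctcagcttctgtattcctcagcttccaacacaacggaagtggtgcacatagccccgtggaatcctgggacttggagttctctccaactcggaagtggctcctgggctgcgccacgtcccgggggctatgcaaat
Itga5: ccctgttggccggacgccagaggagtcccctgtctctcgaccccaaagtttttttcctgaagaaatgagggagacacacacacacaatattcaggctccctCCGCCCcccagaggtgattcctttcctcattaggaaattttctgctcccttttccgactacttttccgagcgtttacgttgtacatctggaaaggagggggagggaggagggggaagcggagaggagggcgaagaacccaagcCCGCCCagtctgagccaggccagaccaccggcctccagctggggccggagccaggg
Fermt2: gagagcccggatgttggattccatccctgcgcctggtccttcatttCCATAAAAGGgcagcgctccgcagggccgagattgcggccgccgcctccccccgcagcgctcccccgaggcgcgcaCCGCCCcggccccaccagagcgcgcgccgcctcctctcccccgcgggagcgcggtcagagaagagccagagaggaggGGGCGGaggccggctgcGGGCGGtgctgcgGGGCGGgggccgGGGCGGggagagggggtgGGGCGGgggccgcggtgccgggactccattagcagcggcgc

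A search of both strands for 7 motifs covered the 25 members with a promoter in the table and 27025 genes in all, of which 9449 were measured genes. The AP-1 site (TGACTCA or its other strand TGAGTCA), the motif of Fos and Jun dimers, was in the promoters of 2 members, Zyx at 121 bases before the start and Itga9 at 38 bases after it, against 4.49% of measured genes. The CArG box was in 1 member, Fermt2, at 204 bases before the start, against 1.58% of measured genes. The GC box (GGGCGG) was in 17 members (68%), against 68.5% of measured genes. The CCAAT box was in 5 members (20%), against 42.8%, and the TATA box (TATAAA) in 2 (8%), against 8.79%. MCAT (CATTCC), the TEAD motif, was in Itga10 and Itgb1, against 14.3% of measured genes. A heat shock element (GAA, any 2 bases, then TTC) was in Itgb5, against 6.95%. The order with TTC before GAA, as in the Itga5 window shown, was not searched. None of the 7 motifs was in the Tln1 window. These matches describe letters in a window and do not show that a factor binds there.

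In the complex of integrin-linked kinase, PINCH and parvin, the brightest probe set of Lims1 varied most over the 4 arrays. Ilk, the pseudokinase at its centre, had log2 signals of 11.67 on the control array and of 11.65, 11.63 and 11.63 after LIPUS, a range of 0.04. Parva, which ties the complex to actin, had 10.82 on the control array and 10.80, 10.84 and 10.82 after LIPUS, a range of 0.04 as well. A second probe set of Parva, of similar brightness, had 10.87 on the control array and 10.75, 10.74 and 10.72 after LIPUS, lower on all 3 LIPUS arrays with log2 ratios of -0.12, -0.13 and -0.15. Lims2, the second PINCH protein, had 9.25 on the control array and 9.33, 9.21 and 9.35 after LIPUS. Lims1, the first PINCH protein, had 11.81 on the control array and 11.62, 11.78 and 11.93 at 0.5, 1 and 3 h. Its lowest array was that at 0.5 h and its highest that at 3 h, 0.32 apart, the largest 3 h minus 0.5 h difference upwards of any member. The 5 probe sets of Lims1 disagreed widely: at 1 h their log2 ratios ran between -0.03 and 0.57. A second bright one had 11.44 on the control array and 11.38, 11.55 and 11.64 after LIPUS, low at 0.5 h and high at 3 h as well. A dim one had 6.49 on the control array and 5.87, 6.92 and 6.86 after LIPUS.

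The kinase and scaffold members differed little on their brightest probe sets. Src, the kinase that phosphorylates focal adhesion proteins, had log2 signals of 8.91 on the control array and of 8.89, 8.90 and 8.81 after LIPUS. Pxn, which encodes paxillin, had 8.95 on the control array and 9.06, 9.05 and 8.94 after LIPUS, but its 2 dimmer probe sets were lower at 1 h and 3 h, with log2 ratios of -0.34 and -0.23 at 3 h. Bcar1, a scaffold that Src phosphorylates when cells are stretched, had 10.15 on the control array and 10.10, 10.28 and 10.24 after LIPUS. Crk, the adaptor that binds phosphorylated Bcar1 and paxillin, had 10.96 on the control array and 10.99, 10.99 and 11.02 after LIPUS. A second bright probe set of Crk was lower on all 3 LIPUS arrays, with log2 ratios of -0.17, -0.16 and -0.15. Of the 4 Crk probe sets above the floor, 3 were lower at 3 h. All 4 representative probe sets stayed within 0.14 of the control array, inside or near the probe set SD.

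Fn1 and Cav1, the matrix ligand fibronectin and the coat protein of caveolae, differed little on their brightest probe sets. Fn1 had log2 signals of 13.60 on the control array and of 13.59, 13.46 and 13.58 after LIPUS. A dimmer Fn1 probe set was low at 0.5 h alone, at 8.07 against 8.61 on the control array, and had 8.72 and 8.46 at 1 h and 3 h. Cav1 had 12.52 on the control array and 12.54, 12.50 and 12.57 after LIPUS, a range of 0.07.

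In all, 17 members had at least 2 probe sets above the floor on all 4 arrays, which allows a check within the same arrays. All probe sets of a gene had the same sign for 11 of these 17 members at 0.5 h, for 6 at 1 h and for 11 at 3 h. The median spread between the lowest and highest probe set of a member was 0.13, 0.25 and 0.18 at the 3 times, larger than the size of most member ratios. Zyx and Src were lower on every such probe set at all 3 times, Src by no more than 0.13 on the log2 scale. Agreement in sign was not counted over all genes, so the background of these member counts is not known.

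Differences between LIPUS arrays do not use the control array. At 1 h against 0.5 h, 0 of 29 members passed 2-fold, where 0.00869% of 11507 genes were that much lower and 0.0348% higher, and at 3 h against 1 h 0 of 28 passed it, where 0.087% of 11494 genes were lower and 0% higher. Between 0.5 h and 1 h the median over 29 members was -0.01, against 0.01 over all genes, and 4 members were at least 0.25 lower at 1 h, against 5.21% of all genes, and 0 that much higher, against 6.1%. These were Itgb4, at least 0.47 lower with its 1 h array under the floor, Itga9 (-0.41), Zyx (-0.37) and Tln1 (-0.30), and Itgb1 was just short of that size (-0.24). The spread between probe sets of one gene had an SD of 0.14 for this step. Between 1 h and 3 h 0 of 28 members were at least 0.25 lower and 0 that much higher, against 4.83% and 4.2% of all genes, and their differences ran between -0.22 for Tln2 and 0.17 for Tns1. At 3 h against 0.5 h, 4 of 29 members were at least 0.25 lower, against 4.9% of 11582 genes: Itgb4 (-0.46), Zyx (-0.43), Itga9 (-0.33) and Itgb1 (-0.30). One member, Lims1 (0.32), was that much higher, against 6.26%.

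Related genes that are not members were counted for context. Of 27 measured other focal adhesion adaptors, 19, 18 and 18 had ratios below 0 at 0.5, 1 and 3 h, with medians of -0.04, -0.04 and -0.05. Tgfb1i1, which encodes Hic-5, a paxillin relative, had a log2 signal of 11.20 on the control array and 11.08, 10.57 and 10.74 after LIPUS. It was the 1 gene of the other adhesion lists past 1.5-fold on its brightest probe set, with a log2 ratio of -0.63 at 1 h. Some dimmer probe sets above the floor on all 4 arrays also passed it. At 1 h these were at 0.85 and 0.80 for Ccn1, 0.72 for Enah, 0.69 for Col1a2, 0.65 for Pdlim5 and 0.60 for Lpp. The same Ccn1 probe sets were at 0.59 and 0.69 at 0.5 h. At 3 h that Pdlim5 probe set was at 0.61, and another Pdlim5 probe set was at -0.61. The brightest probe set of Ccn1 was at 0.36, 0.05 and 0.06 at 0.5, 1 and 3 h. The 30 measured genes of other adhesion signalling had medians of 0.02, 0.04 and 0.04, with Elmo2 lower (-0.42 at 1 h) and Pik3r1 higher (0.50 at 1 h). The 28 measured integrin ligands and matrix genes had medians of -0.01, 0.02 and 0.03, and Postn, the matricellular ligand periostin, was at log2 ratios of 0.20, 0.55 and 0.58. Nid2, a basement membrane linker, was at log2 ratios of 0.19, 0.41 and 0.43. The 6 measured other caveolae genes had medians of -0.06, 0.01 and 0.06, with Cav2 at 0.15 at 1 h and Cavin2 at -0.16 at 3 h. Of the other integrins, mostly chains of blood cells, Itga2b alone of 7 with a probe set was above the floor on all 4 arrays, at a log2 ratio of -0.08 at each time.

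**Figure D5:**
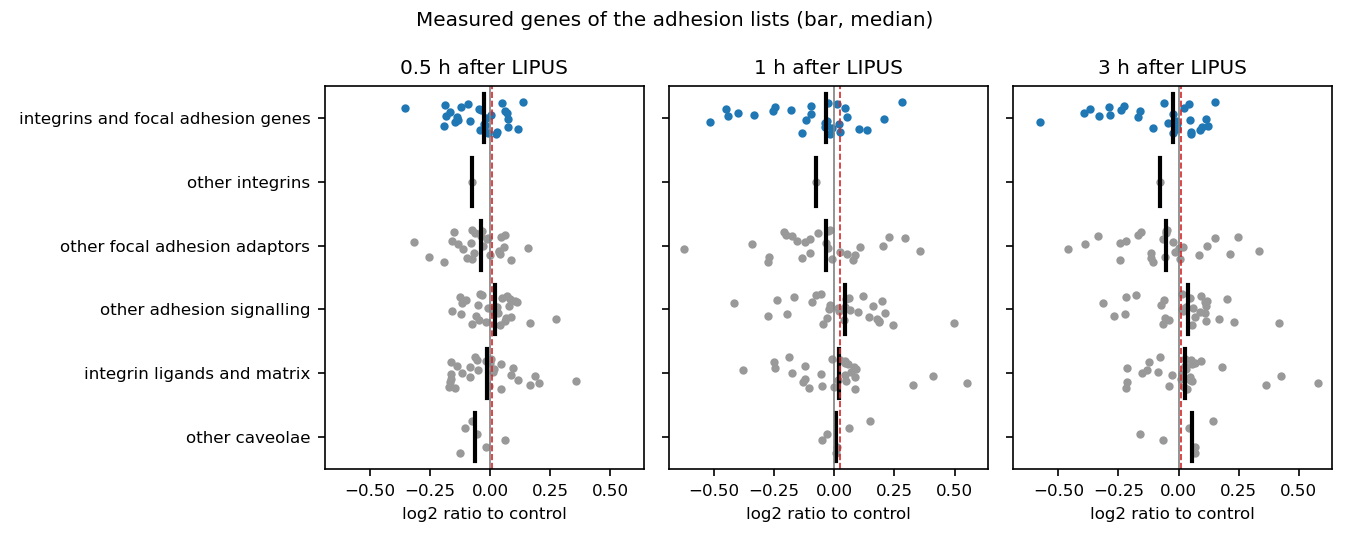
Log2 ratio to the control array (horizontal axis) of each measured gene of the members (blue) and of the other adhesion lists (grey) at 0.5, 1 and 3 h after LIPUS. Black bars are list medians and the dashed red line the median of all genes. The medians of the members lie at -0.03, -0.04 and -0.02, with a longer tail to the left at 1 h and 3 h that ends at Zyx.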

How the data were processed

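Total RNA of 4 ST2 samples, 1 per group, was turned into labelled cRNA with an in vitro transcription kit for transcript 3′ ends, per the labels' protocols. The authors deposited 1 log2 value per probe set and array. The range of values gave the log base. Probe summarisation and array scaling are not given in the sources used here. Of 45101 probe sets, 34958 had 1 gene symbol in the platform annotation. For 34754 of them the RefSeq symbol of the Entrez gene number was used, whether or not it differed. Probe sets with several symbols (932), those not listed (9211) and 64 control probe sets were left out of gene counts.

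The floor was the 50th percentile of all values. All 35 members are named. Of the other lists, genes past 1.5-fold on their brightest probe set are named, or else the 2 farthest from 0. Genes past it on a dimmer probe set alone are given beside these. The members and lists were chosen with earlier results of these data known, and the 0.25 size, the signal ranges and the genes shown as promoters were chosen after values were seen. Single arrays allow no test, p-value or standard error, and the number of arrays limits the precision. The spread between probe sets is the SD of the difference between a gene's 2 brightest probe sets, over the square root of 2. The 2-fold rule was tried on simulated arrays with added changes larger than 2-fold, which says nothing of smaller differences. Python 3.11.15 with numpy 2.4.6, pandas 2.3.3 and matplotlib 3.10.9, and R 4.3.3 with limma 3.58.1, were used. Alternatives changed the floor, the scaling, the probe set, the fold rule and the reference.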

Additional observations from a re-analysis of the deposited data

How the results depend on the processing

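No paired analysis was possible because each group had 1 array, and nothing separates culture, handling and array effects from LIPUS. The count of members past 2-fold at each time was 0 under every alternative run. The 1.5-fold rule, run on brightest probe sets alone, also gave 0. One count moved: with the probe set of largest ratio per gene, 1 member passed 2-fold between adjacent times, Lims1, whose dim probe set was 1.05 higher at 1 h than at 0.5 h. Member medians stayed between -0.07 and 0.0035 at 0.5 h, the highest with the mean of the other 3 arrays as the reference, between -0.12 and -0.01 at 1 h, and between -0.14 and -0.01 at 3 h. The Zyx ratio at 3 h ran between -0.60 and -0.36 and that of Tln1 at 1 h between -0.48 and -0.18, the Tln1 value nearest 0 with the mean over its probe sets. Itga5 at 1 h was at 0.36 with its dim probe set of largest ratio, and between -0.32 and -0.03 otherwise. With centred, quantile or loess scaling 5, 7 and 6 members were at least 0.25 lower at 1 h. The shares of all genes were 7.01%, 10.2% and 9.22%. At 3 h the members numbered 7, 7 and 6, against 7.32%, 6.2% and 6.13%. With the floor at the 75th percentile 2 of 22 members were that much lower at 1 h, against 5.37%. At 3 h 3 of 22 were, against 5.1%. With the mean of the other 3 arrays as the reference 4 of 28 were at 1 h, against 3.73%. At 3 h 1 of 28 was, against 2.85%. With the probe set of largest ratio per gene, 8 of 28 members were that much lower and 4 that much higher at 1 h. At 3 h 8 were lower and 2 higher. The shares of all genes that much lower were 14.0% and 11.9%. Without a floor, 6 of 33 members were lower and 2 higher at 1 h, and 6 and 1 at 3 h. The shares of all genes lower were then 12.2% and 7.32%. Shares of all genes that much higher were not counted under these alternatives. Members above the floor on the control array numbered 22 with the floor at the 75th percentile, and 31 with it at the 25th. Over all genes, 55, 147 and 61 passed 1.5-fold at the 3 times, 11, 13 and 5 passed 2-fold with the floor at the 75th percentile, and 11, 9 and 7 with the other 3 arrays as the reference, against 16, 22 and 8. A baseline without a floor has no count, and steps between times do not use a reference. Probe sets without the suffixes for shared probes were an alternative chosen after seeing the data.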
